A study of Mus musculus with 24 samples.

Results

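Untreated peritoneal macrophages were compared with untreated splenic CD4+ T cells on a nylon cDNA array of mouse cytokine-related genes. The comparison used the control arrays of 3 experiments per cell type, which were 6 of the 12 arrays in the series and 12 of its 24 columns, since each array gave 1 column per duplicate spot. The remaining arrays carried cells exposed to depleted uranium (DU) and are used below as a further reading of the same difference, though not an independent one. Macrophages were elicited with thioglycollate in BALB/c mice, selected by adherence and cultured in flasks without DU for 24 hr. CD4+ T cells came from spleens of DO11.10 mice, which carry a T-cell receptor transgene, were isolated by removing other cell types with antibodies, and were kept without DU for 24 hr in multiwell plates coated with anti-CD3, so that the T-cell controls were receptor-stimulated. The mice were in the second month of life, and each preparation pooled cells from several animals. Cell type, mouse strain, anti-CD3 stimulation and culture vessel differed together between the groups and cannot be told apart. Every experiment had its own cell preparations from other mice.

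Macrophages are phagocytes of the innate immune system that present antigen and release inflammatory cytokines and chemokines. CD4+ T cells are lymphocytes that recognize presented antigen through the T-cell receptor, and stimulation of that receptor complex by anti-CD3 starts the synthesis of growth factors, cytokines and their receptors. The array carried cDNAs for molecules of this exchange. The deposited values name each cDNA by its place on the membrane and pair none with a gene, so the levels below belong to positions, no gene is named, no cDNA sequence is shown, and neither cell type could be checked against its markers. In a position such as C21U, the letter is the membrane row, the number is the column, and U or L is the upper or lower of the places in that cell of the grid.

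Of 531 positions, 529 were used. C3U and A24L were left out because their values were identical in 12 of 12 T-cell columns and in 0 of 12 macrophage columns. Each column was divided by its own mean over the positions above 0, which gives a relative intensity in which 1 is the array mean, and the duplicate spots were averaged. The mean intensity as deposited was 87786, 181441 and 375672 in the macrophage arrays of experiments 1, 2 and 3, and 471461, 497884 and 230683 in the T-cell arrays. A relative intensity is a share of the signal of one array, so fewer cells carrying a message and less of it per cell cannot be told apart, and a few very bright positions lower the values of all others.

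Duplicate spots agreed closely, with a median difference of 4.27% in macrophages and 3.99% in T cells. Arrays of different experiments differed more, and the macrophage arrays differed most. The median SD of a position over the 3 experiments was 0.45 on the log2 scale in macrophages and 0.23 in T cells, and it was larger in macrophages at 404 of 527 positions. Across the 513 positions measured on all arrays, Pearson's r of log2 relative intensity was 0.895 to 0.953 between macrophage arrays, 0.969 to 0.984 between T-cell arrays and 0.725 to 0.834 between cell types. These are descriptions, since the positions share arrays and cDNAs. The macrophage array of experiment 3 correlated with the T-cell arrays at 0.811 to 0.834, above the 0.738 to 0.761 of experiment 1 and the 0.725 to 0.757 of experiment 2. At 410 of 527 positions it lay on the T-cell side of the mean of the other macrophage arrays. That mean enters both sides of the count, so its noise raises the count, and none was made for experiments 1 and 2. The array of experiment 3 was also the brightest macrophage array as deposited. The part of array brightness in its likeness to the T-cell arrays was not tested.

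Untreated macrophages and CD4+ T cells differed at about 1 in 3 of the positions, in both directions, and the largest differences were higher in macrophages. Of 527 positions with a value in at least 2 experiments per cell type, 169 passed an adjusted p of 0.05 in limma with Benjamini-Hochberg adjustment (32.1%). Of these, 58 were higher in macrophages (11%) and 111 were higher in T cells (21.1%). The smallest adjusted p was 3.65e-08, and 245 positions had an unadjusted p under 0.05. The 3 macrophage arrays and the 3 T-cell arrays did not overlap at 254 positions (48.2%), with the macrophages above at 90 and the T cells above at 164. The remaining 358 positions did not pass, which does not show equal levels. The 95% interval of the ratio lay within 2-fold in either direction at 116 of the 527 positions.

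**Figure D1:**
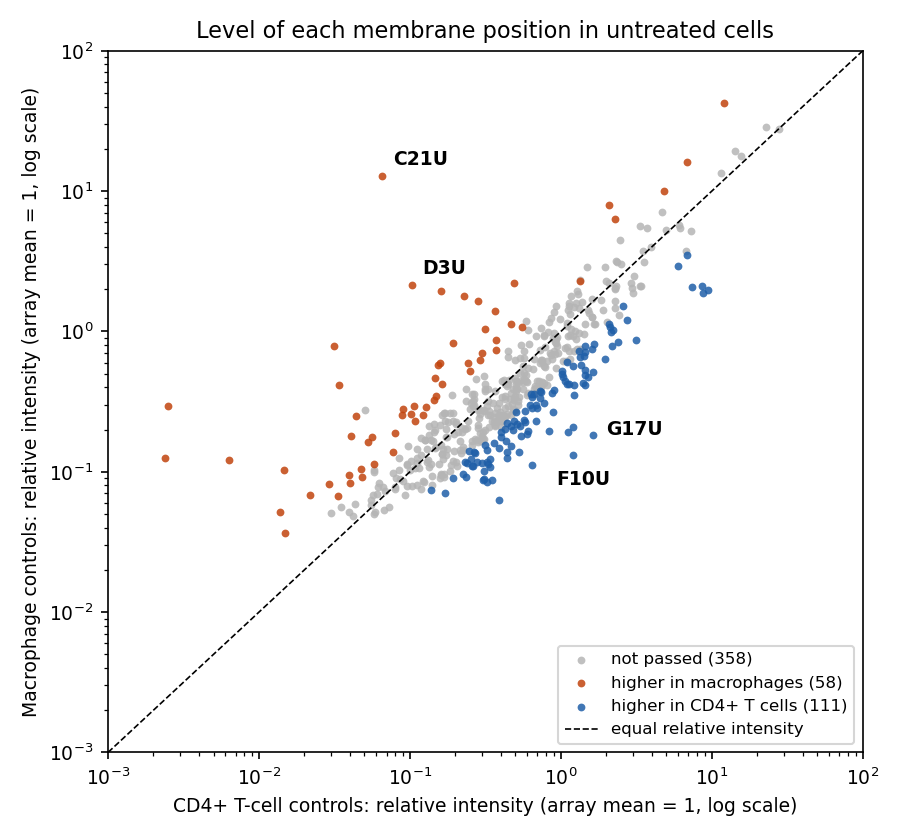
Mean relative intensity of each position in the 3 CD4+ T-cell control arrays (x axis) and the 3 macrophage control arrays (y axis), both on log scales with the array mean at 1; colours mark the 58 positions higher in macrophages, the 111 higher in T cells and the 358 not passed. The positions farthest from the line of equal intensity lie on the macrophage side, with C21U about 200-fold above it, and most blue points lie in a band close below the line.

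How many positions stood higher in each cell type depended on the scaling. The median log2 ratio of macrophages over T cells was −0.33 over all positions when arrays were divided by their mean, with quartiles of −0.89 and 0.26. It was 0.20 when arrays were divided by their median, a shift of 0.53. With median scaling 113 positions were higher in macrophages and 55 in T cells, so that the share higher in macrophages went from 34.3% to 67.3%. Quantile normalization gave 86 and 98, a share of 46.7% with a median log2 ratio of −0.06. Unscaled intensities gave 6 and 49, and the median log2 ratio of −1.42 then also held the lower deposited brightness of the macrophage arrays. Which cell type had more positions higher is therefore not settled by these arrays.

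The counts also moved with single arrays. Without the macrophage array of experiment 3, 297 positions passed, 71 higher in macrophages and 226 higher in T cells, and the median log2 ratio was −0.54. Without the macrophage array of experiment 1, 88 passed. Without the T-cell array of experiment 1, 2 or 3, 89, 93 and 89 passed.

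**Figure D2:**
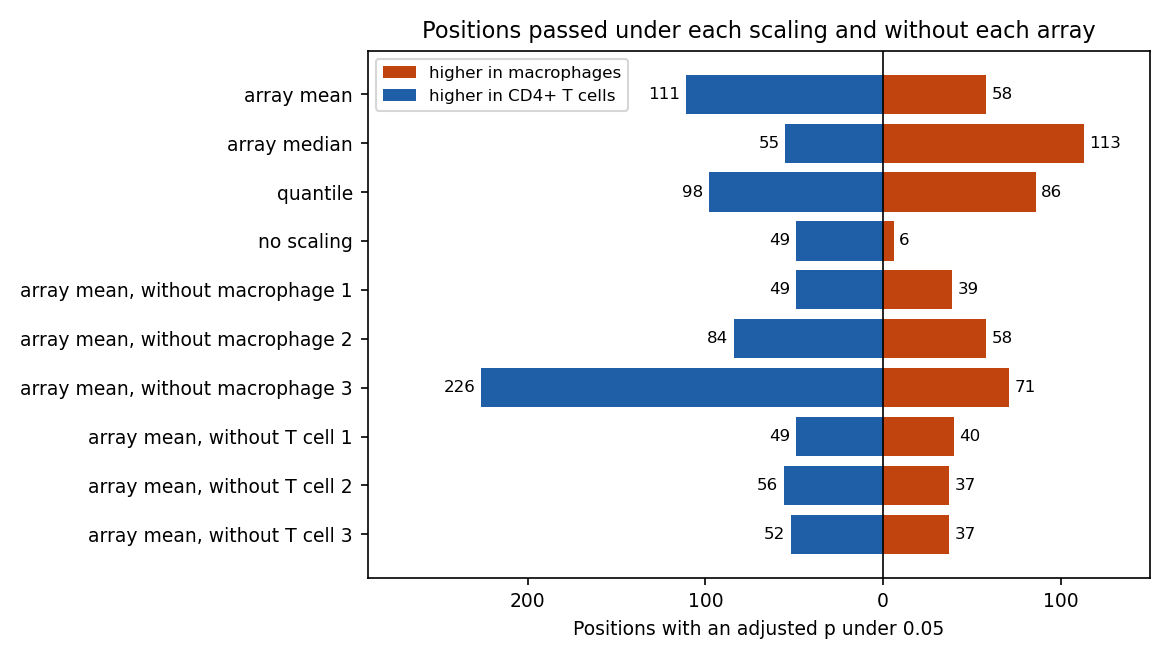
Number of positions with an adjusted p under 0.05 in the untreated comparison, higher in macrophages to the right and higher in CD4+ T cells to the left, under 4 scalings of the arrays and with each array left out under the array-mean scaling. The T-cell bar is longest without the macrophage array of experiment 3, at 226 positions, and the larger side changes between the array mean (111 and 58) and the array median (55 and 113).

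A core of 109 positions passed in the same direction under the array mean, the array median and quantile normalization, 54 higher in macrophages and 55 higher in T cells. In the macrophage-higher positions the median relative intensity was 0.443 in macrophages and 0.136 in T cells. In the T-cell-higher positions it was 0.196 in macrophages and 0.593 in T cells. All 109 still passed without the macrophage array of experiment 3 and 105 without that of experiment 2, against 81 without that of experiment 1. Without 1 T-cell array, 80 or 81 passed. With each of the 6 arrays left out in turn, 65 passed every time, 28 higher in macrophages and 37 higher in T cells. A Bonferroni adjustment in the comparison with all arrays kept 30 of the 109, 18 higher in macrophages and 12 higher in T cells. Without scaling 45 of the 109 passed, 6 higher in macrophages and 39 higher in T cells, and 100 kept their sign. With zeros set to the lowest positive value of their column, 100 passed and 107 kept their sign.

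The sizes of the differences were unlike in the 2 directions. Under the array mean, 8 positions were at least 8-fold higher in macrophages and 2 were at least 8-fold higher in T cells. These numbers were 11 and 0 under the array median and 8 and 2 under quantile normalization. At 4-fold or more they were 16 and 12, 30 and 5, and 20 and 9 under the same scalings. Within the 109, at least 8-fold under each scaling held at 8 macrophage-higher and 0 T-cell-higher positions, and at least 4-fold at 15 and 5. The highest ratio was 200.5-fold in macrophages and 10.5-fold in T cells under the array mean. No test of the difference between the directions was made.

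The 58 positions higher in macrophages had a median ratio of 2.80-fold, with quartiles of 2.21 and 4.25. Their median relative intensity was 0.380 in macrophages and 0.116 in T cells. Of them, 25 lay below 0.1 of the array mean in T cells and 8 lay below it in macrophages. In macrophages 16 were above the array mean, and in T cells 6 were. The remaining 42 were below it in both cell types, as were 381 of all 527 positions, and the median macrophage level of all 527 was 0.326.

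C21U joined a very high level in macrophages with a faint signal in T cells. Its relative intensity was 17.6, 12.8 and 8.15 in the macrophage arrays and 0.0852, 0.0758 and 0.0359 in the T-cell arrays. Every macrophage array was far above every T-cell array, although the macrophage arrays themselves ranged widely. The means were 12.8 ± 4.71 and 0.0656 ± 0.0262 (SD, n = 3 each), a log2 ratio of 7.65 (SE 0.40, 95% interval 6.77 to 8.52, limma adjusted p = 9.52e-08). C21U ranked 8 from the brightest in macrophages and 491 in T cells. As deposited, its spots read 1498130 to 3217967 in macrophages and 7053 to 43478 in T cells, so its direction did not rest on the scaling. The log2 ratio was 8.18 under the array median and 7.24 under quantile normalization.

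D3U was a moderately bright position in macrophages. It measured 1.99, 1.05 and 3.44 in the macrophage arrays and 0.113, 0.121 and 0.0750 in the T-cell arrays. The lowest macrophage array was well above the highest T-cell array. The means were 2.16 ± 1.21 and 0.103 ± 0.0245 (SD, n = 3 each), a 19.1-fold difference (log2 ratio 4.26, SE 0.41, 95% interval 3.35 to 5.16, limma adjusted p = 2.92e-05). It ranked 38 from the brightest in macrophages and 465 in T cells, and its log2 ratio ranked 6 toward macrophages.

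The 8 positions at least 8-fold higher in macrophages, C21U and D3U among them, ranged from 10.8-fold to 200.5-fold with adjusted p from 3.65e-08 to 0.00665. They spanned 0.0929 to 17.6 on the macrophage arrays and 0.000913 to 0.187 on the T-cell arrays. The T-cell side was thus dim at each of the 8, and 2 of them had a value above 0 on fewer than 3 T-cell arrays, which were fitted on the arrays that had one. Ratios over such faint signals depend on background subtraction, which the study's methods name without saying whether the deposited intensities had it.

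The 111 positions higher in T cells had a median ratio of 2.60-fold, with quartiles of 2.14 and 3.40 and a range of 1.72 to 10.5. Their median relative intensity was 0.666 in T cells and 0.266 in macrophages. None of the 111 was below 0.1 of the array mean in T cells and 10 were below it in macrophages, while 44 were above the array mean in T cells and 11 in macrophages. The arrays of the cell types did not overlap at 108 of the 111, beside 58 of the 58 positions higher in macrophages and 254 of all 527 (48.2%). Passing was decided on the same arrays, so the counts within the lists largely restate the selection.

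G17U had the largest ratio in favor of T cells. It measured 1.43, 1.88 and 1.63 in the T-cell arrays and 0.148, 0.0794 and 0.318 in the macrophage arrays. The T-cell arrays lay close together and all above the macrophage arrays. The means were 1.64 ± 0.227 and 0.182 ± 0.123 (SD, n = 3 each), 10.5-fold higher in T cells (log2 ratio −3.40, SE 0.44, 95% interval −4.35 to −2.44, limma adjusted p = 0.000238). It ranked 63 from the brightest in T cells and 378 in macrophages.

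F10U followed at 9.99-fold. It measured 1.36, 1.14 and 1.10 in the T-cell arrays and 0.119, 0.0715 and 0.202 in the macrophage arrays. Again no macrophage array reached the T-cell arrays. The means were 1.1997 ± 0.144 and 0.131 ± 0.0658 (SD, n = 3 each), a log2 ratio of −3.32 (SE 0.37, 95% interval −4.13 to −2.51, limma adjusted p = 8.34e-05). It was near the array mean in T cells, at rank 104, and among the dim positions in macrophages, at rank 430.

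**Figure D3:**
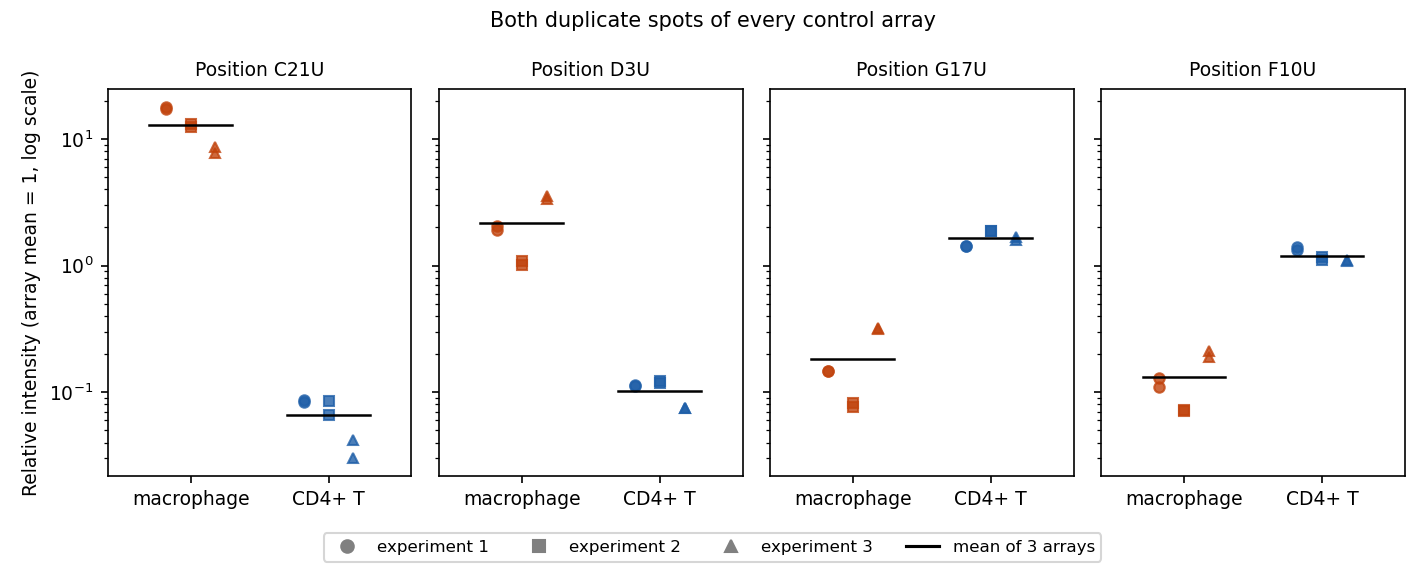
Relative intensity (log scale, array mean at 1) of both duplicate spots of each control array at C21U, D3U, G17U and F10U, with symbols for the 3 experiments and a line at the mean of 3 arrays. The cell types do not overlap at any of the 4 positions, and duplicate spots lie closer together than experiments in most cases.

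Of the 12 positions at least 4-fold higher in T cells, 4 were the places used at the corners of the membrane, in rows A and P. Their relative intensity was 1.55 to 1.72, 0.648 to 0.756 and 3.30 to 3.97 in the macrophage arrays of experiments 1, 2 and 3. In the T-cell arrays it was 7.04 to 10.3, 7.83 to 9.92 and 7.35 to 8.15, with a value of 0 at 2 of the 4 positions on the array of experiment 3. The T cells were higher at all 4, by 4.45-fold to 5.92-fold (limma adjusted p from 0.00303 to 0.0158), also under the array median and quantile normalization. This held at the 2 corners without a 0 when zeros were set to the lowest positive value of their column (log2 ratios of −2.58 and −2.39, limma adjusted p of 0.0140 and 0.0232). At the 2 corners with a 0 the direction turned, to log2 ratios of 1.89 (SE 2.95) and 1.66 (SE 2.99), and neither passed. What these corner positions hold is not known. The other 8 of the 12 lay inside the grid.

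Some of the brightest signals were shared. Among the 10 brightest positions of each array, 8 were common to the 3 macrophage arrays, 6 to the 3 T-cell arrays and 5 to all 6 arrays. These 5 measured 8.52 to 38.9 on the macrophage arrays and 10.6 to 30.8 on the T-cell arrays. None of the 5 passed, with log2 ratios of −0.06 to 0.45, 95% intervals between −0.77 and 1.07 and limma adjusted p of 0.238 to 0.888.

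The position brightest in T cells measured 30.8, 22.8 and 30.0 there and 22.4, 38.9 and 21.2 in macrophages. The arrays of the cell types overlapped, and the means were 27.9 ± 4.41 and 27.5 ± 9.91 (SD, n = 3 each). The position brightest in macrophages measured 38.6, 62.9 and 26.0 there and 4.44, 8.89 and 22.8 in T cells. Its lowest macrophage array was only slightly above its highest T-cell array, that of experiment 3, and the mean difference was 4.13-fold (log2 ratio 2.05, SE 0.53, limma adjusted p = 0.0138).

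By level, 80 positions were above the array mean in both cell types. Of these, 6 passed as higher in macrophages and 11 as higher in T cells, and at 24 the 95% interval lay within 2-fold. A further 18 were above the array mean in macrophages alone, of which 10 passed, and 48 in T cells alone, of which 33 passed. The means that set these classes also enter the test. In the classes of 18 and 48 the direction was thus largely fixed, and a share passed above the 32.1% of all positions is built in. The remaining 381 were below it in both, with 42 passed as higher in macrophages and 67 as higher in T cells.

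Signal was gathered into fewer positions on 2 of the 3 macrophage arrays. The 10 brightest positions held 40.8%, 44.8% and 26.4% of the signal on the macrophage arrays and 26.3%, 23.7% and 30.3% on the T-cell arrays. The macrophage array of experiment 3 lay among the T-cell arrays. The means were 37.3% ± 9.68 and 26.8% ± 3.34 (SD, n = 3 each), a difference of 10.6 percentage points (two-sided exact permutation test, p = 0.2, where 3 arrays against 3 cannot go below 0.1). The difference was 16.03 without that array and 6.83 without the macrophage array of experiment 2. The relative intensity of the middle position was 0.263, 0.241 and 0.420 in macrophages and 0.475, 0.448 and 0.376 in T cells, and 84, 83 and 118 positions lay above the array mean in macrophages against 124, 127 and 113 in T cells (exact permutation p = 0.2 for both). The spread of levels over positions ran the other way, with an SD of log2 relative intensity of 1.68 to 1.78 on the macrophage arrays and 1.82 to 1.92 on the T-cell arrays, which did not overlap (exact permutation p = 0.1, the smallest possible). The ratio of the 90th to the 10th percentile was 19.3 ± 1.11 in macrophages and 22.7 ± 4.34 in T cells (SD, n = 3 each, exact permutation p = 0.3).

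The directions were spread unevenly over brightness. In the dimmest of 4 equal classes by mean relative intensity, from 0.0258 to 0.198, 25 positions were higher in macrophages and 13 in T cells, with a median log2 ratio of 0.03. In the next classes 10 and 32, then 11 and 34, and in the brightest 12 and 32 passed, with median log2 ratios of −0.61, −0.51 and −0.22. Under the array median, which adds about the same shift to every class, the class medians were 0.56, −0.08, 0.02 and 0.31. Under quantile normalization they were 0.03, −0.15, −0.07 and −0.08, so the class next to the dimmest was below 0 under each scaling and the brighter classes were not. Of the 109 positions that passed under all 3 scalings, the dimmest class held 21 higher in macrophages and 5 higher in T cells, and the brightest 12 and 13. The classes were not tested against each other.

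Passed positions were found over the whole membrane. They made up 32.3% of the upper and 31.8% of the lower positions. Among rows with at least 25 positions, the share passed went from 11.9% in row L, 5 of 42, to 53.6% in row C, 15 of 28. In row B, 0 were higher in macrophages and 7 in T cells, and in row H the counts were 11 and 6. How the cDNAs are laid out by gene is not known here, and rows were not tested against each other.

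**Figure D4:**
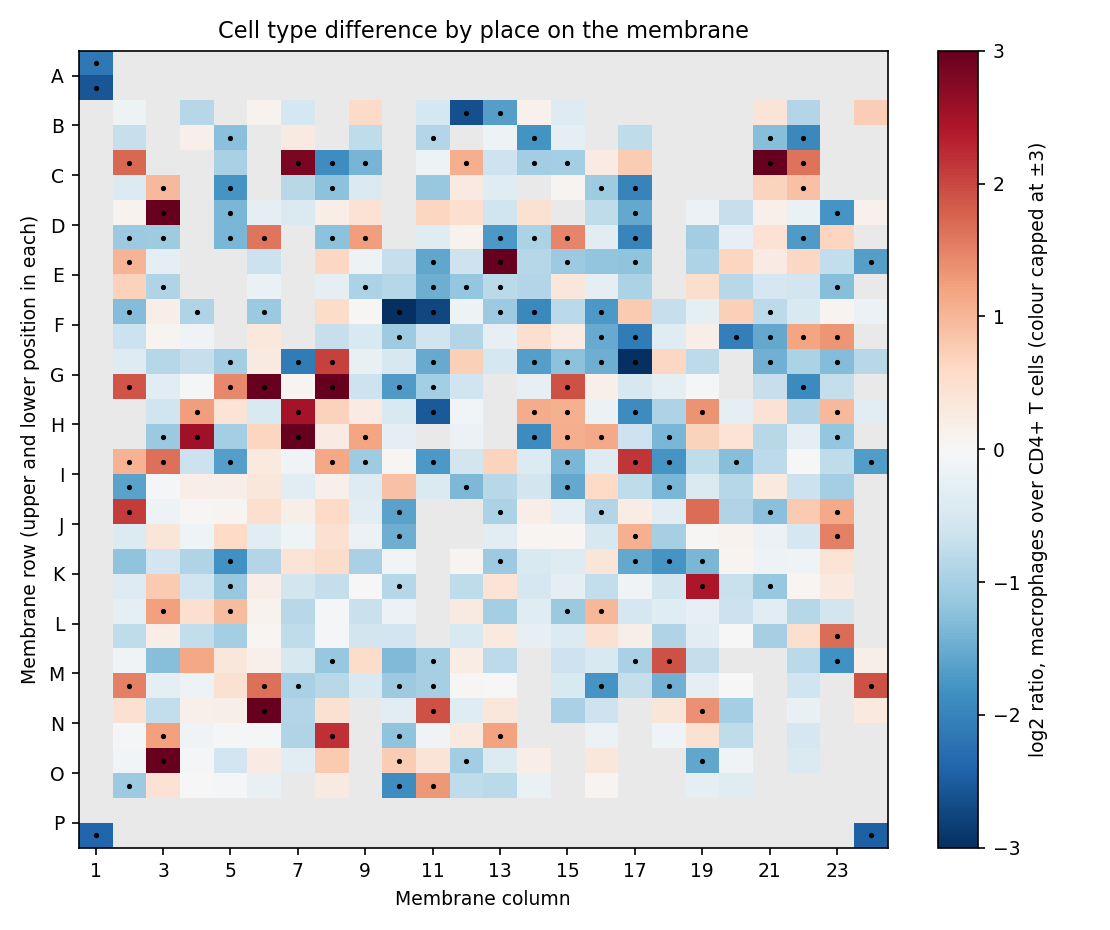
Log2 ratio of macrophages over CD4+ T cells at each place on the membrane (rows A to P with upper and lower positions, columns across), red where macrophages are higher and blue where T cells are higher, with the colour capped at ±3, black dots on the 169 positions that passed, and grey where no position was tested. Red and blue positions are mixed over the grid, and the 4 corner positions are all blue.

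Intensities of 0 occurred on the T-cell arrays alone. Both spots read 0 at 0 positions of each macrophage array and at 1, 2 and 15 positions of the T-cell arrays of experiments 1, 2 and 3, and 13 of the 15 lay in membrane column 24. A 0 was treated as missing, so these positions were compared on the remaining T-cell arrays, and 2 positions of column 24 with fewer than 2 such arrays were not tested. With zeros set instead to the lowest positive value of their column, 130 positions passed, 53 higher in macrophages and 77 higher in T cells. Of the 169 calls 128 were kept in the same direction, and 4 T-cell-higher calls changed sign without passing, the 2 corners with a 0 and 2 further positions of column 24. Of the 11 tested positions of column 24, 4 passed, beside 169 of all 527 (32.1%). The zeros were mostly a feature of the array of experiment 3. Of its 15 such positions 13 were tested, with relative intensities of 0.0114 to 9.24 on the other T-cell arrays, and 9 of these were above 0.1 on both of them.

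The same cell types were also measured after 24 hr with DU, at 50 μM in macrophages and 100 μM in T cells, on 3 further arrays each from the same experiments. They carry the same experiment numbers as the controls and deviated together with them, so agreement between the untreated and DU comparisons is not independent replication. The dose differed with the cell type. Of 529 positions tested there, 158 passed in limma (29.9%), 65 higher in macrophages (12.3%) and 93 higher in T cells (17.6%). In both comparisons 124 passed, all in the same direction, which is 73.4% of the untreated list and 78.5% of the DU list. Each of the 169 positions that passed in untreated cells had the same sign after DU, beside 471 of all 527. Of the 54 macrophage-higher positions that passed under all 3 scalings, 50 passed after DU, with a median log2 ratio of 1.55 untreated and 1.51 after DU. Of the 55 T-cell-higher positions 41 passed, and the median size was 1.73 and 1.38 on the log2 scale. Both lists were chosen on their untreated values, which favors larger untreated ratios. The medians are therefore not a like comparison, and their change was not tested.

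The 4 named positions kept their order. C21U measured 13.9, 9.53 and 7.74 in DU-treated macrophages and 0.124, 0.0694 and 0.0466 in DU-treated T cells (log2 ratio 7.09, SE 0.38, limma adjusted p = 2.92e-06). D3U measured 1.19, 2.72 and 3.13 in macrophages and 0.123, 0.116 and 0.101 in T cells, with a log2 ratio of 4.26 again (SE 0.36). None of these groups overlapped. G17U measured 1.01, 1.41 and 1.92 in DU-treated T cells and 0.102, 0.266 and 0.297 in macrophages (log2 ratio −2.80, SE 0.43). F10U measured 1.01, 0.853 and 0.852 in T cells and 0.0903, 0.144 and 0.207 in macrophages (log2 ratio −2.70, SE 0.32). T cells were above macrophages on every array at both.

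The change in the cell type difference with DU was tested as an interaction over the 4 groups. In limma 0 of 527 positions passed (0%), with 7 at an unadjusted p under 0.05 and a smallest adjusted p of 0.325. An alternative that took the spread of each position from limma's curve of spread against intensity passed 1 position, C7U, named here after its values were seen. Its log2 ratio was 2.83 untreated and 4.53 after DU, with an interaction of 1.70 (SE 0.38, limma adjusted p = 0.325). C7U was dim in both untreated cell types, at 0.127, 0.0886 and 0.0949 in macrophages and 0.0128, 0.0139 and 0.0169 in T cells. Unknown background limits ratios at such levels. That fit had no block, and the median SE of the interaction was 0.44 on the log2 scale. With the control and DU arrays of each experiment and cell type as a pair, an alternative chosen after seeing the data, the median SE was 0.28, 25 positions had an unadjusted p under 0.05 and 0 passed (smallest limma adjusted p of 0.224). For scale, the median size of the log2 ratio over all positions was 0.66 between the untreated cell types, and 0.18 in macrophages and 0.19 in T cells between DU and control.

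**Figure D5:**
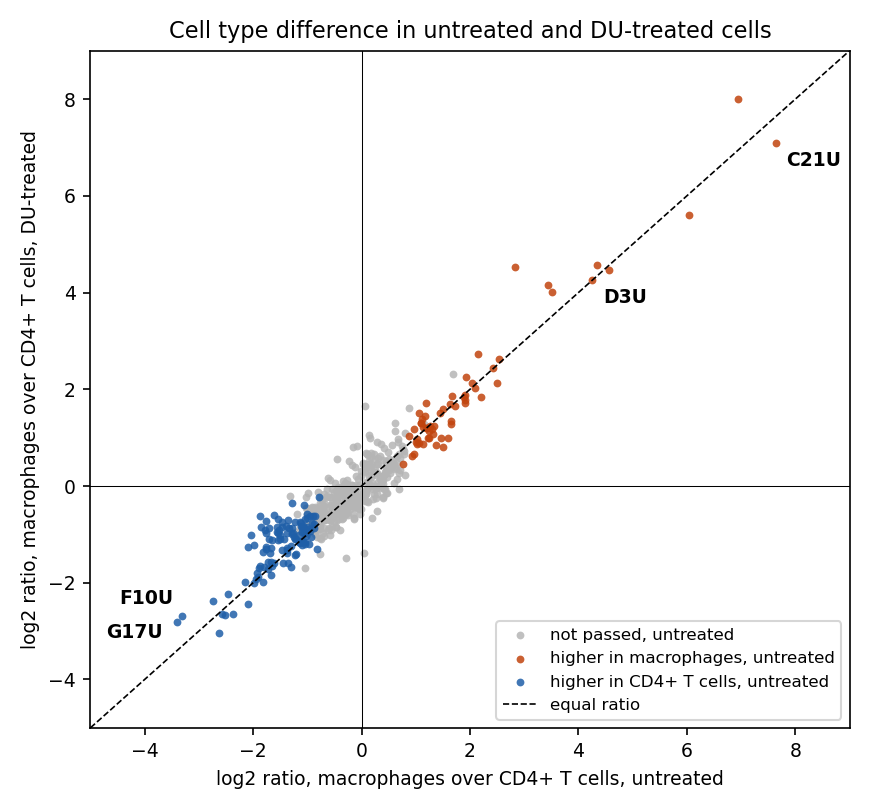
Log2 ratio of macrophages over CD4+ T cells at each position in untreated cells (x axis) and DU-treated cells (y axis), coloured by the untreated result, with a dashed line of equal ratio. All 169 coloured positions lie in the quadrants of equal sign. On the untreated axis C21U is at the macrophage end and G17U and F10U are at the T-cell end, while D3U ranks 6 toward macrophages.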

How the data were processed

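According to the study's methods, labeled cDNA was hybridized to nylon membranes that were phosphoimaged and quantified in ArrayVision. The authors deposited whole-number intensity values of each duplicate spot, on a linear scale and without scaling between arrays. The methods name background subtraction, and whether these values had it is not stated. The positions, lists and tests were chosen with earlier results of these data known.

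Columns were mapped to cell type, treatment and experiment by the sample labels. Each was divided by its mean over positions above 0, with zeros as missing values, and the log2 values of duplicate spots were averaged. Positions with values in at least 2 of 3 experiments per cell type were fitted in R 4.3.3 with the lmFit and eBayes steps of limma 3.58.1 (no block, two-sided, at a Benjamini-Hochberg adjusted p of 0.05). Fits covered untreated cells, DU-treated cells, and an interaction over the 4 groups. Array summaries were compared by exact permutation. Control and DU arrays of the same experiment number deviated together within each cell type (r from 0.268 to 0.849 over 513 positions), although the macrophage control of experiment 2 correlated more with the DU array of experiment 1 (0.517), and the interaction was also fitted with these pairs as a block. The precision was limited by 3 arrays per cell type, with a median SE of the log2 ratio of 0.33. The fit was also run on simulated data with the same spread in every group, which does not cover the larger spread of the macrophage arrays. No result above rests on it.

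Named were the 2 positions per direction with the largest ratio among those passed, above 0 in all 12 control columns and above the array mean in the higher cell type. C7U, C3U and A24L were named apart from this rule. Alternatives were other scalings, dim positions left out, zeros replaced, duplicate spots apart or as a block, an intensity trend, a replicate block, all groups in 1 fit, a Z-test with limma's spread curve and normal p-values after the study's methods, each array left out, and positions left out. Bonferroni adjustment, positions above 0 throughout, column 24 left out and the blocks with other scalings or within each cell type were chosen after seeing the data. Gene names were not used here.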

Additional observations from a re-analysis of the deposited data

How the results depend on the processing

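In untreated cells 169 positions passed, and 18 of 25 alternatives gave counts within 1.5 times of that. The others were no scaling (55), a Bonferroni adjustment (30) and 5 of the 6 arrays left out in turn (88 to 297 over all 6). In DU-treated cells, beside 158, no scaling gave 40, the Z-test 240, Bonferroni 30 and arrays left out 81 to 224. Setting zeros to the lowest positive value gave 130 in untreated cells and turned the direction of 4 of the 169 calls. No scaling turned the direction of 10 and quantile normalization that of 1. For the interaction, beside 0, the Z-test gave 1 (C7U, adjusted p = 0.000709), and the other 32 of 33 alternatives gave 0, among them the replicate block within each cell type under the array mean, the array median and quantile normalization. The median log2 ratio over all positions of −0.33 was 0.20 under median scaling and −1.42 without scaling. The share of untreated calls higher in macrophages, 34.3%, was 44.3%, 23.9% and 44.9% without the macrophage array of experiment 1, that of experiment 3 and the T-cell array of experiment 1, and 60% under Bonferroni. The difference in signal share of the 10 brightest positions, 10.6 percentage points, ranged from 6.83 to 16.03 with arrays left out, in each case within the SD pooled over both cell types of the main value. C21U, D3U, G17U and F10U kept their direction and stayed past the threshold in 25 of 25, with adjusted p up to 4.41e-05, 0.0175, 0.00997 and 0.00544. The experiment numbers are shared by the groups, but deviations of same-numbered macrophage and T-cell arrays correlated at 0.0747, 0.229 and 0.0634, so the numbers were not taken as pairs, although every array correlated best with its own number. With the replicate block 146 positions passed in untreated cells, 140 of them among the 169, 176 in DU-treated cells and 0 for the interaction. With an array left out, 1 cell type had 2 arrays. Unknown background limits the ratios of dim positions.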

Other observations

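The positions left out of the comparison had the following relative intensities. C3U measured 6.07, 5.004 and 16.3 in the macrophage arrays of experiments 1, 2 and 3, where A24L measured 1.47, 0.637 and 4.10. Both measured 3.16, 4.98 and 5.19 in the T-cell arrays. The 2 positions of membrane column 24 that were not tested had deposited intensities of 3972 to 10804 on the macrophage arrays and 0 to 857 on the T-cell arrays.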
